A study of Mus musculus with 5 samples.

Results

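Cajal-Retzius cells are the early neurons of the cortical marginal zone, just under the pial surface, and they secrete reelin, a large extracellular glycoprotein. The 10 genes described here are reelin itself, encoded by Reln, the reelin receptor Lrp8, the adaptor Dab1 and 7 further genes that mark Cajal-Retzius cells, which are Trp73, Lhx1, Lhx5, Ebf2, Ebf3, Nhlh2 and Calb2. They were chosen by name, and all 10 were found among the 23997 gene names of the expression table.

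The data are RNA-seq of the full cortex of C57BL/6 mouse embryos at embryonic day 16, from 2 Uhrf1 cKO embryos (libraries MG18 and MG19) and 3 control embryos (MG15, MG16 and MG17). The cKO embryos carried the Emx1 Cre and no intact Uhrf1 in the Cre lineage (Uhrf1 -/-), and the controls carried the same Cre with Uhrf1 lost from 1 allele (Uhrf1 +/-), so that no library comes from a Cre-free or wild-type cortex. The Emx1-driven Cre deletes a floxed exon in the dorsal telencephalon only, and cells that enter the cortex from the ventral telencephalon keep Uhrf1. Values are FPKM, fragments scaled to the transcript length and to the depth of the library, which can be compared between genes because they are given per length. The paper does not state how the depths of the libraries were scaled to each other. The paper calls the animals biological replicates.

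Released reelin binds the receptors encoded by Lrp8 (ApoER2) and Vldlr on migrating neurons. Receptor binding leads Src family kinases to phosphorylate Dab1 inside the cell, and the signal is needed for neurons to take up their inside-out order of layers, as the reeler mouse shows. Many Cajal-Retzius cells are born in the cortical hem, and others at the septum and at the border of pallium and subpallium. The transcription factors Trp73 (p73), Lhx1, Lhx5, Ebf2, Ebf3 and Nhlh2 are active in these cells, some of them in other young neurons too. Calb2 encodes calretinin, a calcium-binding protein of Cajal-Retzius cells that also occurs in subsets of interneurons. At later stages interneurons make reelin as well.

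Uhrf1 recruits the maintenance DNA methyltransferase to newly copied CpG sites, and for this reason the sequence before 2 of the starts is shown, one dense and one sparse in CpG. The capitals mark each CpG, a motif that reads CG on both strands. Both sequences are the 250 bases before an annotated start, read from the RefSeq annotation of GRCm38.p6 on the minus strand, where both genes lie. The first is the Reln promoter at chr5:22344706-22344955, and the second is an internal start of Trp73 at chr4:154097174-154097423, inside the gene, where it overlaps an exon of the antisense gene Trp73os. An internal start of Trp73 gives the truncated form of p73 known from neurons.
Reln promoter: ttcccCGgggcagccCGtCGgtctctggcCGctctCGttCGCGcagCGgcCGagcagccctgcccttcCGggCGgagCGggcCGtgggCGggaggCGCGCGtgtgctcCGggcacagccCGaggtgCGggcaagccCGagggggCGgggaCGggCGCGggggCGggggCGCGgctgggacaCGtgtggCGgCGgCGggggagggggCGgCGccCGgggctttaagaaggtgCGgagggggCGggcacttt
Trp73 internal start: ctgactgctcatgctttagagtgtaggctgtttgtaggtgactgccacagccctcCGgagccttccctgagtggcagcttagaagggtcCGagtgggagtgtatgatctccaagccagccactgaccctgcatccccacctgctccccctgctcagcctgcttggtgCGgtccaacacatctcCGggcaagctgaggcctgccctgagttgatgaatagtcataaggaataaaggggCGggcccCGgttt

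The Reln promoter held 37 CpG in these 250 bases, against 6 before the internal start of Trp73. In windows of 300 bases (250 before to 50 after a start), Reln had 47 CpG, a number reached by 1.44% of 32851 windows in the RefSeq set, whose median was 7. The upstream start of Trp73 had 39 CpG, the starts of Dab1 had 46 and 12, that of Ebf3 had 46, that of Lhx1 had 31, those of Lrp8 had 21, 5 and 4, and that of Nhlh2 had 2. Thus 7 of the 10 genes were matched to a window, and they range from CpG-dense to CpG-poor starts. Methylation of these starts was not analysed here.

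Uhrf1 was measured at 2.75 and 2.61 FPKM in the cKO libraries, against 7.24, 13.2 and 13.0 FPKM in the control libraries, so that the cKO embryos averaged 24.0% of the control level. Of the 14698 genes tested, 185 passed an adjusted p of 0.05 in limma, which is 1.26% of them. An unadjusted p under 0.05 in limma with over 2-fold was passed by 594, which is 4.04%. These are the study's cutoffs, but the study applied them to p-values of Cuffdiff and reported fewer genes at this stage. Where a gene is said to pass the study's threshold, the p is that of limma, and the gene need not be among those of the study. Sequencing depth could only be estimated roughly, from the steps between low FPKM values, at 8080000 and 9640000 fragments in the cKO libraries, against 18600000, 15400000 and 10300000 in the controls. The cKO libraries were thus the shallowest on this scale, and the value of MG15 is poorly resolved, with 61.1% of its low values within 0.25 of a whole fragment where chance gives 50%. Each group held both sexes, with Ddx3y, a Y-linked gene, at 13.3 and 0 FPKM in cKO MG18 and MG19, against 19.4, 0.0141 and 21.8 FPKM in control MG15, MG16 and MG17. The difference between the cKO libraries described below therefore goes together with sex, and the part of sex in it was not tested.

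The label of full cortex fits the high levels of dorsal telencephalic genes. Neurod6, a transcription factor of cortical excitatory neurons, had 612 and 589 FPKM in the cKO libraries and 712, 686 and 1013 FPKM in the controls. The choroid plexus marker Ttr, its transthyretin gene, was low, at 0 and 0.389 FPKM in the cKO libraries and 0.382 to 0.800 FPKM in the controls. Foxj1, a transcription factor of cells with motile cilia on the same marker list, was higher, at 4.12 and 2.14 FPKM in the cKO libraries, against 1.31, 1.10 and 1.28 FPKM in the controls. Wnt3a, the defining ligand of the cortical hem, was listed at 0 in both cKO libraries and at no more than 0.0351 FPKM in the controls. A list of 11 thalamus and hypothalamus genes was low too, but higher in cKO. Its sums were 2.59 and 1.65 FPKM in MG18 and MG19, against 0.947 to 1.38 FPKM in the controls. None of its 4 tested genes passed either threshold. All 10 genes described here had values above 0 in every library.

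None of the 10 genes passed either threshold. Calretinin came nearest, averaging 53.3% of its control level, and reelin had lower values in both cKO libraries than in any control. Lrp8 had higher values in both as deposited, and the other 7 genes had overlapping groups. All 10 genes passed the filter on low values, which asked for 0.1 FPKM or more on average. In whole tissue, fewer cells of a type and less RNA per cell cannot be told apart.

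**Figure D1:**
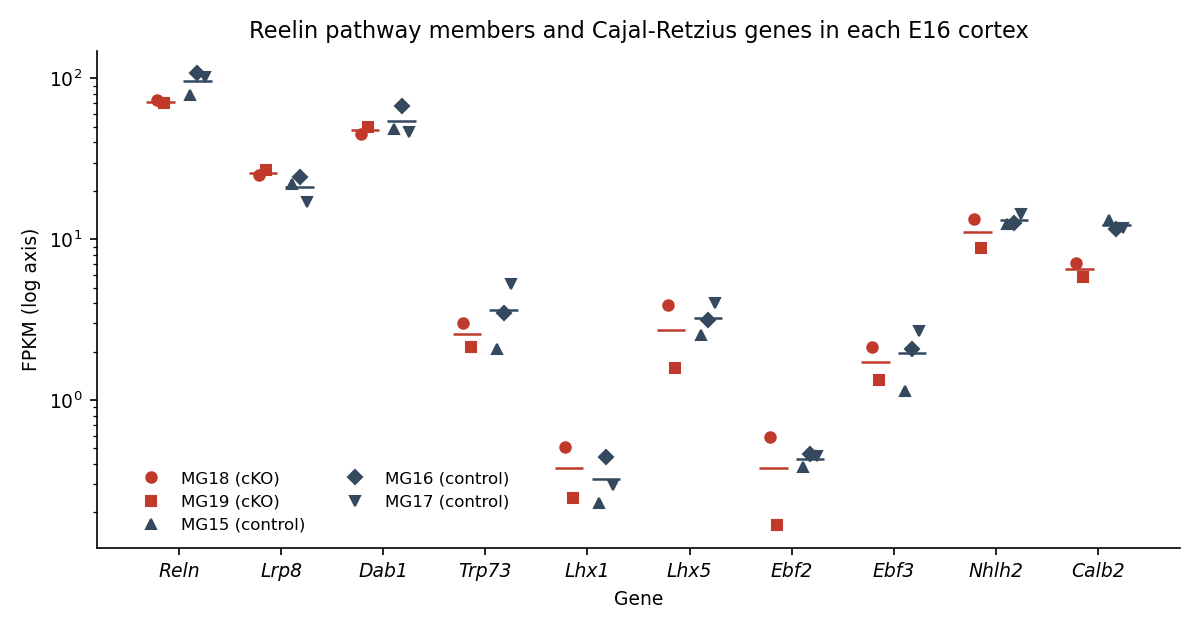
FPKM of the 10 genes (log axis) in each library, with the 2 cKO libraries in red on the left of each pair and the 3 control libraries in dark blue on the right. Horizontal lines are group means. The groups are apart for Reln and Calb2, both lower in cKO, and for Lrp8, higher in cKO as deposited but not with libraries scaled to equal sums, and for the other genes they overlap.

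Reln lies on chr5:21884454-22344702 (GRCm38), minus strand. It was the most abundant of the 10 genes, with 73.2 and 69.9 FPKM in the cKO libraries, against 78.9, 107.5 and 102.3 FPKM in the controls. The 2 cKO libraries lay close together and below the lowest control, MG15, while the controls spread 1.36-fold. The group means were 71.6 ± 2.34 FPKM in cKO (SD, n = 2) and 96.2 ± 15.3 FPKM in controls (SD, n = 3). The log2 fold change was -0.41 (SE 0.18, 95% interval -0.81 to -0.01), with an unadjusted p of 0.0438 and an adjusted p of 0.418 in limma. The lower reelin level therefore did not pass over all genes, and its interval leaves out a 2-fold decrease. After quantile normalization the Reln groups overlapped (unadjusted p = 0.152), with equal sums the adjusted p was 0.0486, and with 1 library left out the unadjusted p was 0.0166 to 0.178. In the two-sided exact permutation test Reln had p = 0.2, where 3 libraries against 2 cannot give less than 0.1.

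Lrp8 encodes the reelin receptor ApoER2, a member of the LDL receptor family, and lies on chr4:107802261-107876840. It had 25.0 and 26.8 FPKM in the cKO libraries, against 22.1, 24.4 and 17.2 FPKM in the controls. Both cKO values were above all controls, but the lower cKO value exceeded the highest control, MG16, by less than the controls differed from each other. The log2 fold change was 0.30 (95% interval -0.11 to 0.72, adjusted p = 0.557, limma), and with libraries scaled to equal sums it was -0.07, so that its direction depends on the scaling. The second reelin receptor, Vldlr, had 19.8 and 21.0 FPKM in the cKO libraries and 20.4, 20.3 and 17.1 FPKM in the controls, with overlapping groups and a log2 fold change of 0.09 (95% interval -0.27 to 0.45).

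Dab1, the adaptor that carries the reelin signal inside the receiving neuron, lies on chr4:103619359-104744844. It was measured at 44.9 and 50.2 FPKM in the cKO libraries, against 48.2, 67.3 and 46.7 FPKM in the controls. The groups overlap, and the control library MG16 stands above the other 4 libraries. The log2 fold change was -0.17 (95% interval -0.60 to 0.26, adjusted p = 0.759, limma), and without MG16 it was 0.0014. Reelin and its 3 downstream partners were thus expressed in all cortices at levels between 17.1 and 107.5 FPKM, with no difference past the threshold.

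The transcription factors were lower in abundance than Reln, Dab1 and Lrp8, and they differed more between MG18 and MG19. Among the controls they were not all more variable, since Nhlh2 and Ebf2 had a smaller SD of the log2 values (0.11 and 0.12) than Reln (0.24). Trp73, the p53 family member needed for Cajal-Retzius cells to survive, lies on chr4:154056253-154140208, minus strand. It had 3.02 and 2.15 FPKM in the cKO libraries, against 2.09, 3.50 and 5.23 FPKM in the controls. The controls alone spread 2.51-fold and enclosed both cKO values. The log2 fold change of -0.39 had a 95% interval of -1.21 to 0.43, so that neither no change nor a 2-fold decrease is left out.

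The LIM homeobox genes Lhx1 and Lhx5 act in the specification of neurons, and Lhx5 is also needed for the cortical hem. Lhx5 (chr5:120431699-120441223) had 3.91 and 1.57 FPKM in the cKO libraries, against 2.55, 3.17 and 4.01 FPKM in the controls. Lhx1 (chr11:84518284-84525535) had 0.513 and 0.247 FPKM in the cKO libraries, against 0.228, 0.445 and 0.297 FPKM in the controls. In both genes the 2 cKO libraries differed by more than 2-fold, 2.48-fold for Lhx5 and 2.08-fold for Lhx1, with MG18 high and MG19 low. The log2 fold changes were -0.34 for Lhx5 (95% interval -1.18 to 0.49) and 0.15 for Lhx1 (95% interval -0.85 to 1.16).

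Ebf2 and Ebf3 encode helix-loop-helix factors of the COE family, and Ebf2 lines label Cajal-Retzius cells. Ebf3 (chr7:137193673-137314445) had 2.13 and 1.34 FPKM in the cKO libraries, against 1.14, 2.06 and 2.69 FPKM in the controls. Ebf2 (chr14:67233292-67430918) had 0.586 and 0.167 FPKM in the cKO libraries, against 0.383, 0.463 and 0.447 FPKM in the controls. For Ebf2 the cKO libraries were the highest and the lowest of the 5, 3.51-fold apart, while the controls differed by 1.21-fold. The log2 fold changes were -0.31 for Ebf2 (95% interval -1.37 to 0.75) and -0.12 for Ebf3 (95% interval -0.98 to 0.74). On the rough depth scale, Ebf2 rests on 8.36 to 37.2 fragments a library and Lhx1 on 9.15 to 26.4, so that counting error alone is large for these genes. Antisense genes overlap Reln, Lrp8, Trp73, Lhx5, Ebf2 and Ebf3, and reads of the 2 strands cannot be told apart where the counting does not use strand, which the methods do not state.

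Nhlh2, a helix-loop-helix factor of young neurons, lies on chr3:102010076-102015492. It was the most abundant of the 6 factors, with 13.4 and 8.83 FPKM in the cKO libraries, against 12.4, 12.5 and 14.3 FPKM in the controls. MG18 lay within the controls and MG19 was the lowest library. The log2 fold change was -0.26 (95% interval -0.73 to 0.21, adjusted p = 0.648, limma).

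Calb2 (chr8:110137502-110168210, minus strand) had 7.12 and 5.85 FPKM in the cKO libraries, against 13.1, 11.6 and 11.8 FPKM in the controls. The groups are well apart, since the gap between them is wider than the spread within either. The means were 6.49 ± 0.898 FPKM in cKO (SD, n = 2) and 12.2 ± 0.790 FPKM in controls (SD, n = 3). The log2 fold change was -0.90 (SE 0.18, 95% interval -1.31 to -0.50), with an unadjusted p of 6.97e-04 and an adjusted p of 0.0529 in limma, just short of the threshold of 0.05. The adjusted p was 0.0484 after quantile normalization, 0.0487 with equal medians, 0.0327 after removal of a trend with transcript length and 0.00782 with equal sums. It was 0.0871 to 0.369 when 1 library was left out, and 0.110 with no trend of the variance. Leaving out a library kept the log2 fold change between -1.04 and -0.76. The exact permutation p was 0.1, the smallest this design can give.

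**Figure D2:**
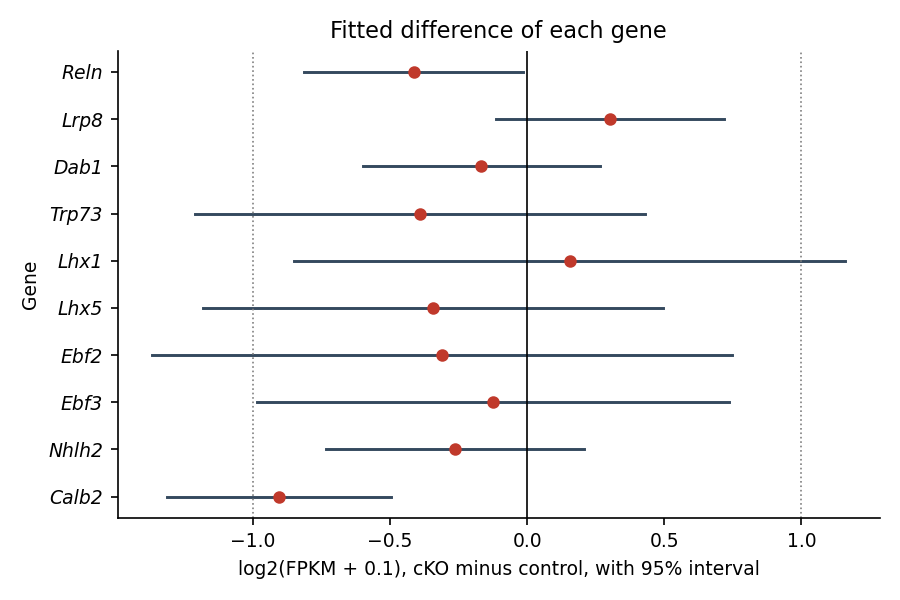
Fitted difference of log2(FPKM + 0.1), cKO minus control, for each of the 10 genes (points), with 95% intervals from limma (lines). Dotted lines mark a 2-fold difference in each direction. The intervals of Reln and Calb2 lie below 0, and those of the transcription factors other than Nhlh2 span more than 1.5 log2 units.

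Counted over the 10 genes, 2 had lower values with p under 0.05 before adjustment, Reln and Calb2, where 5.17% of all genes tested were. Both cKO libraries lay below every control in the same 2 genes, against 16.3% of all genes, and above every control in 1 gene, Lrp8, against 14.5% of all genes. The direction of the whole group was less even. A log2 fold change below 0 was found for 8 of the 10 genes, with a median of -0.29, beside a median of -0.02 over all genes, of which 52.2% were below 0.

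This median rested on 1 library. Without MG19 it was 0.11, with 4 of the 10 genes below 0, and without MG18 it was -0.50, with 9 of 10 below 0. In MG19 the level of 9 genes was below the control mean, and in MG18 that of 4. Among the controls this count was 8 in MG15, 3 in MG16 and 4 in MG17, so that 1 control came near to MG19. MG19 was the lowest of the 5 libraries for 5 of the 10 genes, and MG17, a control, was the highest for 4. Without MG19 the log2 fold changes of Lhx5, Ebf2, Ebf3 and Nhlh2 were above 0, at 0.29, 0.37, 0.19 and 0.03. Reln and Calb2 did not depend on it in direction, at -0.38 and -0.76 without MG19.

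**Figure D3:**
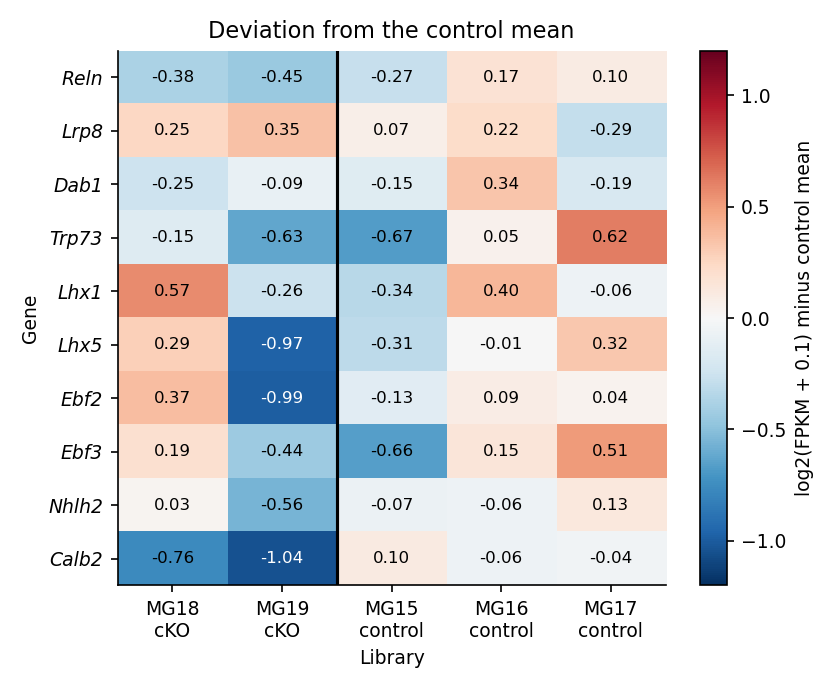
Deviation of each gene in each library from its control mean, in log2(FPKM + 0.1), with the 2 cKO libraries left of the line and the 3 controls right of it. Reln and Calb2 are below 0 in both cKO libraries, and all 6 transcription factors are lower in MG19 than in MG18, while the control MG15 has low Trp73 (-0.67) and Ebf3 (-0.66).

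All 6 transcription factors had a higher level in MG18 than in MG19, by 1.41-fold for Trp73 to 3.51-fold for Ebf2. Among the controls, MG15 was the lowest and MG17 the highest for Trp73, Lhx5, Ebf3 and Nhlh2, while for Lhx1 and Ebf2 MG15 was the lowest and MG16 the highest. Summed over the 6 factors, the levels were 23.5 FPKM in MG18 and 14.3 FPKM in MG19 of the cKO group, against 18.8, 22.2 and 26.9 FPKM in the controls. Most of each sum is Nhlh2, at 13.4 FPKM in MG18 and 8.83 FPKM in MG19, against 12.4 to 14.3 FPKM in the controls. In these sums the cKO libraries spanned much of the range of the controls and went below it. By contrast, Reln, Lrp8, Dab1 and Calb2 differed between MG18 and MG19 by no more than 1.22-fold.

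Over the 5 libraries, the centred log2 profiles nearest to each other among the 10 genes were those of Trp73 and Ebf3, with a root mean square difference of 0.153, and of Lhx5 and Ebf2, with 0.158. Lrp8 and Trp73 were the most unlike, with 0.653. With 5 libraries, these are descriptions of how the profiles look. Among the 12085 genes that averaged 1 FPKM or more, the profiles nearest to that of Reln were those of Fam122b (0.0375), Pcbd1 (0.0474) and Prpf3 (0.0538). Nearest to Calb2 were 2610005L07Rik (0.0651), Acat2, an acetyl-CoA acetyltransferase (0.0707), and Gm10190 (0.0768). Acat2 had 77.5 and 62.4 FPKM in the cKO libraries, against 128, 114 and 113 FPKM in the controls.

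A ratio of genes within a library does not depend on how libraries are scaled. Calb2 was 9.72% and 8.37% of the Reln level in the cKO libraries, against 16.6%, 10.8% and 11.5% in the controls, with no overlap between the groups. Lrp8 was 34.2% and 38.3% of the Reln level in the cKO libraries, against 28.0%, 22.7% and 16.8% in the controls. Lrp8 was also higher relative to Dab1, at 55.8% and 53.4% in the cKO libraries, against 45.8%, 36.3% and 36.8% in the controls. Dab1 relative to Reln overlapped between groups, at 61.3% and 71.8% in the cKO libraries and 61.1%, 62.6% and 45.6% in the controls. Trp73 relative to Reln overlapped as well, at 4.13% and 3.08% in the cKO libraries and 2.65%, 3.25% and 5.12% in the controls. Vldlr, the other receptor, was 79.2% and 78.5% of the Lrp8 level in the cKO libraries, against 92.4%, 83.0% and 99.7% in the controls. Of 8 such ratios computed, these 4 with Calb2 or Lrp8 did not overlap between the groups, and the others did. The pairs were picked by hand, and the separated ratios mostly share Lrp8. Lrp8 relative to Reln had to separate, since Lrp8 was above and Reln below every control in both cKO libraries. The share of other gene pairs whose ratios separate was not computed, so that no conclusion is drawn from this count.

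The order of the levels was the same in both groups for the upper 3 genes, Reln above Dab1 above Lrp8, with ranges that did not overlap in either group. Nhlh2 and Calb2 followed, with overlapping ranges in the controls (12.4 to 14.3 and 11.6 to 13.1 FPKM) and separate ones in cKO (8.83 to 13.4 and 5.85 to 7.12 FPKM). Below them, the ranges of Lhx5 overlapped those of Trp73 and of Ebf3 in both groups. Trp73 lay above Ebf3 in cKO (2.15 to 3.02 and 1.34 to 2.13 FPKM), while the controls overlapped (2.09 to 5.23 and 1.14 to 2.69 FPKM). Ebf2 and Lhx1 at the bottom overlapped in both groups.

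The rest of the reelin pathway was followed with 34 further genes, of receptors, kinases, adaptors, ligases, cytoskeletal effectors and reelin-cleaving proteases. All 34 were tested, with a median log2 fold change of -0.01 and 16 of 34 above 0. None passed the adjusted threshold, and Adamts2, a metalloprotease that cleaves and inactivates reelin, passed the study's threshold. Adamts2 had 1.93 and 2.87 FPKM in the cKO libraries, against 1.30, 0.526 and 0.459 FPKM in the controls (log2 fold change 1.64, SE 0.43, unadjusted p = 0.00397, adjusted p = 0.165, limma). Without MG19 its unadjusted p was 0.0788, and without MG15 its adjusted p was 0.0467. Its groups are apart, but MG15 was nearer to the cKO libraries than the other controls were. The related proteases Adamts3 and Adamts4 overlapped between groups. Cofilin, encoded by Cfl1 and regulated downstream of Dab1, had 808 and 513 FPKM in the cKO libraries and 731, 560 and 757 FPKM in the controls, with a log2 fold change of -0.07. Dcx, the microtubule-associated protein doublecortin of migrating neurons, had 203 and 236 FPKM in the cKO libraries and 198, 234 and 162 FPKM in the controls.

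Of 19 other genes found in Cajal-Retzius cells, 18 were tested and Dbx1 was under the filter. Their median log2 fold change was -0.16, with 7 of 18 above 0 and none past the adjusted threshold. Nhlh1, the close relative of Nhlh2, passed the study's threshold in the opposite direction to its relative. It had 3.02 and 4.24 FPKM in the cKO libraries, against 1.39, 1.57 and 2.29 FPKM in the controls (log2 fold change 1.02, SE 0.30, unadjusted p = 0.00693, adjusted p = 0.222, limma). Without MG19 the unadjusted p was 0.0897, and with equal sums it was 0.0599. Nhlh1 is known from newborn neurons in general and not only from Cajal-Retzius cells. Ndnf, a secreted protein used as a marker of Cajal-Retzius cells and layer 1 interneurons, had 11.98 and 9.18 FPKM in the cKO libraries, against 11.8, 16.1 and 16.5 FPKM in the controls, with overlapping groups (log2 fold change -0.48, adjusted p = 0.430, limma). The most abundant of the list were the chemokine receptor Cxcr4, at 61.6 and 45.6 FPKM in the cKO libraries and 57.1, 45.0 and 55.3 FPKM in the controls, and the T-box factor Tbr1, at 40.2 and 43.5 FPKM in the cKO libraries and 28.2, 39.1 and 34.1 FPKM in the controls. Both genes are shared with other cortical neurons.

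**Figure D4:**
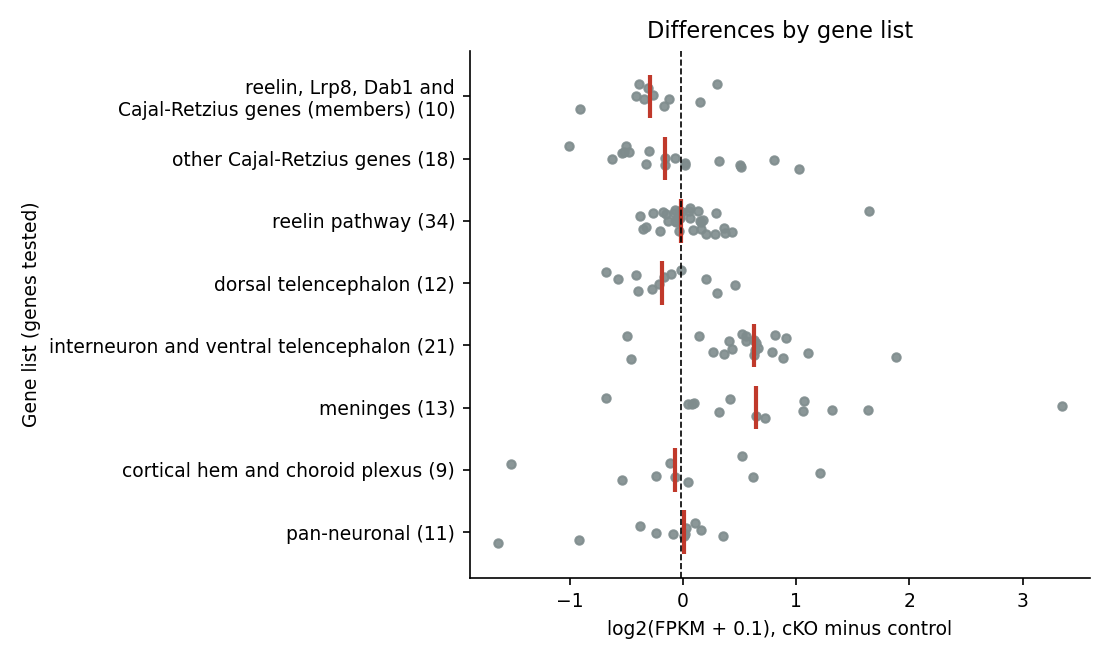
Log2 fold change, cKO minus control, of each tested gene (grey points) by gene list, with the list's median (red bar) and the median of all genes tested (dashed line at -0.02). The 10 genes have a median of -0.29, the reelin pathway -0.01, the other Cajal-Retzius genes -0.16, and the interneuron and meninges lists lie to the right, at 0.63 and 0.64.

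Genes of other cells in the dissected tissue also differed between the libraries. For the interneuron and ventral telencephalon list, the median log2 fold change was 0.63, with 19 of 21 tested genes above 0 and none past the adjusted threshold. Both cKO libraries lay above every control for 10 of the 21, against 14.5% of all genes, and 52.2% of all genes had a log2 fold change below 0. The ventral factors Gsx2 (log2 fold change 1.11) and Isl1 (1.88) passed the study's threshold. Neither passed it without MG19, MG15 or MG16, with unadjusted p of 0.148, 0.0692 and 0.0999 for Gsx2 and 0.310, 0.0521 and 0.0850 for Isl1, nor Gsx2 without MG18 (0.107) or Isl1 without MG17 (0.0548). Its summed level was 410 FPKM in MG18 and 262 FPKM in MG19 of the cKO group, against 233 to 269 FPKM in the controls, so that it was high in MG18, the cKO library with the higher transcription factor levels. Calb2, which interneurons share, was lower in both cKO libraries while the interneuron transcription factor Dlx1 was higher, at 28.0 and 18.8 FPKM in the cKO libraries against 14.8, 13.9 and 15.2 FPKM in the controls.

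The meninges, which cover the marginal zone, are a further source of RNA in a dissected cortex. For the meninges list, the median log2 fold change was 0.64, with 12 of 13 tested genes above 0, where 52.2% of all genes were below 0. The sum of this list was 39.0 and 34.3 FPKM in the cKO libraries, against 22.7 to 24.8 FPKM in the controls. Not all of its genes were high in both cKO libraries. Dcn had 6.90 FPKM in MG18 but 0.997 FPKM in MG19, against 0.906 to 1.66 FPKM in the controls. Col1a1 had 0.663 FPKM in MG18 but 3.19 FPKM in MG19, against 0.203 to 0.816 FPKM in the controls. The groups overlapped for Col3a1 and Foxc1, with log2 fold changes of 0.08 and 0.10. Crabp2, a retinoic acid binding protein, passed the adjusted threshold (log2 fold change 3.34, adjusted p = 0.0347, limma, against 0.453 without MG18 and 0.458 without MG19), and the matrix genes Col1a1 (log2 fold change 1.64) and Lum (1.07) passed the study's threshold too, while the defining meningeal gene Slc6a13 was at 0.0702 and 0.0498 FPKM in the cKO libraries and 0.0828 to 0.305 FPKM in the controls. Col1a1 did not pass without MG19, MG16 or MG17 (unadjusted p of 0.427, 0.0902 and 0.0819), nor Lum without MG18, MG15 or MG17 (0.217, 0.0798 and 0.0817). The cortical hem and choroid plexus list, from the region where many Cajal-Retzius cells are born, had 9 of 18 genes tested and sums of 22.6 and 26.1 FPKM in the cKO libraries, against 22.9 to 23.7 FPKM in the controls. None of its genes passed the adjusted threshold, and 2 passed the study's threshold, Foxj1 (log2 fold change 1.21, unadjusted p = 0.00425) and Ttr (log2 fold change -1.52, unadjusted p = 0.0438, limma). Without MG18 the log2 fold change of Foxj1 was 0.75, under 2-fold. Ttr did not pass without MG18, MG15, MG16 or MG17, with unadjusted p of 0.454, 0.0681, 0.127 and 0.0602. The dorsal telencephalon list had 9 of 12 genes below 0, against 52.2% of all genes. Its sums were 1073 and 1123 FPKM in the cKO libraries, against 1334 to 1509 FPKM in the controls. Most of each sum is Neurod6, at 612 and 589 FPKM in the cKO libraries, against 712, 686 and 1013 FPKM in the controls. Both cKO libraries lay below every control for 4 of the 12 genes, against 16.3% of all genes. These were Emx1, Pax6, Bhlhe22 and Neurod6. They lay above every control for 0, and none of the 12 passed either threshold. The part of these cell type markers in the levels of Reln, Calb2 and the other 8 genes was not tested.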

How the data were processed

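RNA from whole E16 cortices was sequenced as strand-specific, ribosomal RNA-depleted, paired libraries. The authors mapped reads to mm10 with TopHat2, removed duplicate, multiply mapped, improperly paired and poor reads, and deposited FPKM values per gene and library from Cuffdiff. Tool versions were not given in the sources used here. No counts were used.

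From the deposited FPKM, log2(FPKM + 0.1) was fitted with limma 3.58.1 (R 4.3.3, variance trend, prior degrees of freedom 6.23) to compare cKO with control over the 14698 genes that averaged 0.1 FPKM or more, leaving out 57 small RNA names that reached it. P-values were adjusted after Benjamini and Hochberg over all of these genes, and fold changes on this scale understate those of low genes. The fit was tested on simulated data. Positions are from GENCODE M21 (GRCm38). The members and lists were chosen with earlier results of these data known. Of the lists, Vldlr, genes past a threshold and the 2 most abundant are named, of the marker lists up to 4 with the largest change or those the label turns on, and the 3 profiles nearest to Reln and Calb2. Dlx1, Npy, Dcn, Rspo3 and the Adamts relatives were chosen after their values were seen. Libraries are named as in the labels, with no pairing between groups. Alternatives were 2 other pseudocounts, 2 other filters, 4 scalings or trend corrections, no variance trend and leaving out each library.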

Additional observations from a re-analysis of the deposited data

How the results depend on the processing

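Of 14 alternatives, none gave a higher level of Reln, Trp73 or Calb2 in cKO. Scaling to equal sums over the genes tested moved the median of all genes to -0.38, because the short RNAs Rmrp and Rpph1 made up 25.0% and 38.6% of the summed FPKM in the cKO libraries and were listed at 0 in the controls. The small RNA names left out of the fit made up 39.2% and 56.0% of all FPKM in the cKO libraries, against 87.35%, 64.6% and 71.7% in the controls. These differences in library composition go together with the genotype, and their origin was not tested. Under equal sums 871 genes were called at an adjusted p under 0.05, 183 higher and 688 lower, against 161 higher and 24 lower in the fit without scaling. Of the 10 genes, Reln (-0.79, adjusted p = 0.0486) and Calb2 (-1.27, adjusted p = 0.00782) were then called, 2 members in all, 1 member passed p under 0.05 with over 2-fold, 4 were lower at p under 0.05, 4 lay below every control and 0 above, their median was -0.61, Lrp8 was at -0.069 and Lhx1 at -0.12. Relative to the shift of all genes, Reln was at -0.41 and Calb2 at -0.89. With quantile normalization 1 member, Calb2, was called (-0.93), 1 was lower at p under 0.05, 1 lay below every control, and Lhx1 was at -0.11, and 321 genes were higher and 288 lower at p under 0.05 with over 2-fold, against 423 and 171. With equal medians 1 member was called (Calb2, -0.93), and 1 after removal of the length trend (Calb2, -0.93). With no variance trend 1 was lower at p under 0.05. A mean of at least 1 FPKM left 113 genes called and 236 past p with over 2-fold, and a pseudocount of 1 left 179, since both shrink or remove low genes.

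Leaving out each library in turn, the members past p with over 2-fold were 0 to 1, those lower at p under 0.05 were 1 to 4, those below every control 2 to 5 and above every control 1 to 3, those with a log2 fold change below 0 were 4 to 9, and the median lay between -0.50 and 0.11. Genes called at an adjusted p were 49 to 143, fewest without a cKO library, where the lone one is assumed to vary like the controls, and those past p with over 2-fold 560 to 795. Log2 fold changes ranged from -0.26 to 0.0014 for Dab1, -0.26 to 0.57 for Lhx1, -0.97 to 0.29 for Lhx5, -0.99 to 0.37 for Ebf2, -0.45 to 0.19 for Ebf3 and -0.56 to 0.034 for Nhlh2. Dab1 was above 0 without MG16, Lhx1 below 0 without MG18 (-0.26) or MG15 (-0.01), and Ebf3 above 0 without MG19 or MG17 (0.13). No paired analysis was possible because the labels give no replicate numbers. Depth limits Ebf2 and Lhx1 most.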
